A study of Mus musculus with 9 samples.

Results

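Axon guidance ligands and their receptors were examined in RNA of pancreatic islets from male mice aged 8 weeks. KO islets came from βRapKO mice (*Raptor* flox/flox with a RIP-Cre transgene, which expresses Cre recombinase under the rat insulin promoter), and WT islets came from littermates that carried the same floxed alleles without Cre. *Raptor* (gene symbol *Rptor*) encodes the scaffold of mTORC1, a kinase complex that couples nutrients to growth. The labels give the strain as C57BL/6, and the methods give C57BL/6J for the floxed line and a mixed background for the Cre line. There were 5 WT and 4 KO Affymetrix arrays, each with the islet RNA of 5 animals combined. Since no WT animal carried Cre, the transgene and the deletion cannot be told apart. On the log2 scale of the arrays *Rptor* fell from 9.47 ± 0.21 (SD, n = 5) to 8.75 ± 0.32 (SD, n = 4), with a limma adjusted p = 0.041, a call that held without WT replicate 4 or KO replicate 3 and was lost without any other array (limma adjusted p from 0.0508 to 0.115).

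The members were picked by a pattern of gene symbols, and the pattern was chosen with earlier results of these data known. They were the genes named as semaphorins, plexins, netrins, Unc5 receptors, Slits, Robos, Eph receptors and ephrins, with *Dcc*, *Neo1*, *Nrp1* and *Nrp2*, and they numbered 72 of the 18193 genes that had a probe set of their own. A probe set is the group of short probes that reads 1 transcript, and the brightest one stood for each gene. By their letters alone the pattern also took in *Unc50*, a Golgi protein unrelated to netrin receptors, *Unc5cl*, an Unc5c-like cytoplasmic protein, and *Plxna4os1*, an opposite-strand transcript of *Plxna4*. These 3 are counted as members but not as ligands or receptors, which leaves 35 ligands and 34 receptors. The dimmest genes (a share of 0.25, with a mean log2 signal up to 5.51) were left out before testing. This left 13644 genes and 57 members, and 15 members were below the filter.

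Axon guidance cues were named for steering growing nerve fibres, but they are used wherever cells attract, repel or recognise each other. Secreted or membrane-bound semaphorins act on plexins, some of them with neuropilins as co-receptors. Netrins act on Dcc, neogenin and Unc5 receptors, and Slits act on Robo receptors. Ephrins are anchored in the membrane of one cell and bind Eph receptor kinases of its neighbour, and both sides can signal. In islets, ephrin-A and EphA proteins take part in the communication of beta cells, Robo receptors in islet architecture, and several class 3 semaphorins and ephrin-B2 in vessel growth.

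Read by the brightest probe set of each gene, the secreted and membrane-bound cues that passed the test were higher in KO islets. Receptors passed in both directions. Of the 57 tested members 6 rose and 2 fell at a limma adjusted p under 0.05, which is 14.0% of them, where 6.3% of all genes tested passed. The members that rose were the semaphorins *Sema3c*, *Sema3e* and *Sema4f*, the netrins *Ntn1* and *Ntn4* and the receptor *Epha3*. The members that fell were the receptors *Robo1* and *Epha7*. By direction, the rises made up 10.5% of the members and 3.67% of all genes, and the falls 3.51% of the members and 2.63% of all genes. Among the rises, *Ntn1* and *Epha3* passed the filter through their KO means alone, so these shares are descriptions only. The median log2 difference, KO minus WT, was 0.27 over the members and 0.04 over all genes tested. With the lowest 0.5 of genes left out, these medians were 0.069 over the 28 members still tested and 0.02 over all genes. Of all called genes 58.3% were higher in KO islets, against 34.9% with median-centred arrays and 49.9% with quantile normalization, where the called members numbered 3 higher and 1 lower, and 5 higher and 2 lower. Leaving out KO replicate 1, 2, 3 or 4 left 5 called members in each case, 4 higher and 1 lower, where 2.75% to 3.46% of all genes were called.

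The arrays of the groups did not overlap for 13 of the tested members (22.8%), with 9 of them above WT and 4 below. The background was 12.5% of all genes tested, 7.43% above and 5.05% below. Of 28 tested ligands 5 rose and none fell, their median difference was 0.37 and 8 lay without overlap above WT. At an unadjusted limma p under 0.05, 12 ligands were higher and none was lower, where 21.8% of all genes passed, 13.3% higher and 8.43% lower. This holds for the brightest probe set of each gene, and dimmer probe sets of ligands went both ways. Those of *Sema4d* differed by 1.82 and -1.67 (limma unadjusted p = 0.0069 and 0.0117), and that of *Efna3* by -1.71 (limma unadjusted p = 0.04998). By the methods' t-test with Benjamini-Hochberg adjustment none of the ligands was lower either. Of 27 tested receptors 1 rose and 2 fell, with a median of 0.10, and at an unadjusted limma p under 0.05 only *Epha3* was higher while 5 were lower. Whether ligands and receptors differ from each other was not tested. These counts describe the members that passed the filter. *Epha3*, *Ntn1*, *Epha8* and *Plxna4* passed it through their KO mean, with WT means below 5.51.

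**Figure D1:**
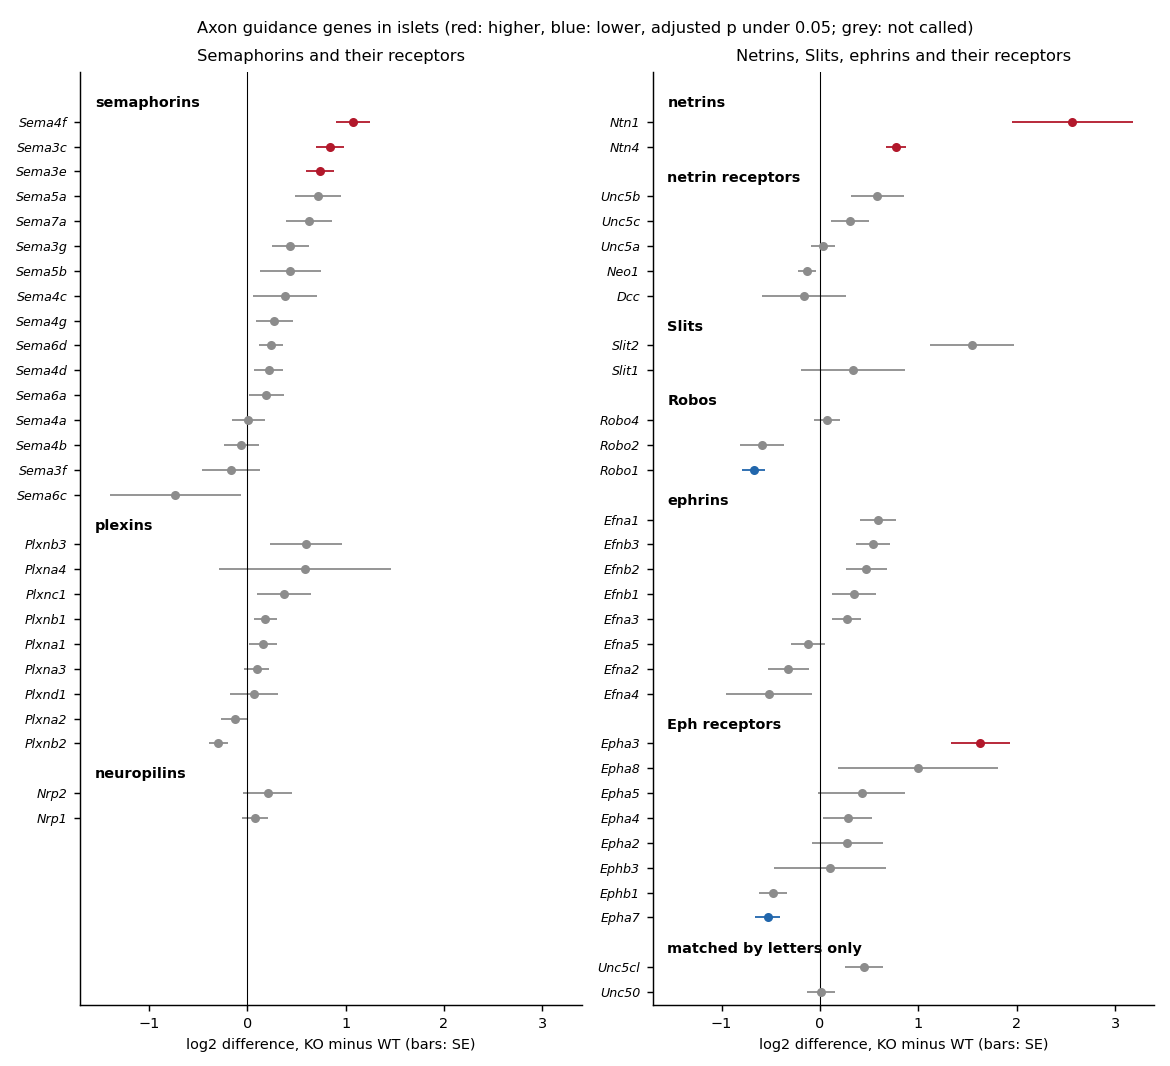
Log2 difference, KO minus WT, of the 57 tested members by family, with the SE as bars. Red points are the 6 members that rose, blue points the 2 that fell and grey points the members that were not called. The called ligands lie to the right of 0, and *Robo1* and *Epha7* to the left.

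Whole islets also contain stromal, vascular, neural and ductal cells, whose markers moved between the groups. In bulk RNA, fewer cells of a type and less RNA per cell cannot be told apart. By staining, the paper reported a lower beta cell mass, fewer insulin-positive cells per islet and smaller beta cells in βRapKO mice of this age. The part of these changes in the array values was not tested. The mean over 8 beta cell markers ranged from 13.84 to 14.02 on WT and from 13.23 to 13.42 on KO arrays, and 5 of the 8 fell, so the labelled tissue showed its defining markers on every array. The mean over 18 stromal markers ranged from 8.23 to 9.20 in WT and from 9.51 to 10.00 in KO arrays, and 10 of the 18 rose. The mean over 15 endothelial markers lay at 8.63 to 9.0 in WT and 9.29 to 9.50 in KO arrays, over 6 Schwann and glial markers at 5.75 to 6.80 and 7.26 to 7.53, over 9 neuronal markers at 8.84 to 9.63 and 9.84 to 10.04, and over 4 ductal markers at 8.22 to 9.06 and 9.24 to 9.74. The mean over 3 delta cell markers lay at 12.38 to 12.70 and 12.77 to 13.17. None of these means overlapped between the groups. Single markers were less uniform. Of the 9 neuronal markers 3 rose and 1 fell, with differences from -1.24 to 1.63. Of the endothelial, Schwann and delta cell markers 1 each rose, and of the 4 ductal markers none passed the limma test (2 at an unadjusted p under 0.05). The marker lists hold genes that the paper reported as changed in KO islets, such as *Slc2a2*, *Pdx1* and *Ucn3* for beta cells and *Pdgfra* for stroma. The p-values of the marker means are therefore descriptions only. The exact two-sided permutation p, which cannot be lower than 0.00794 with 5 and 4 arrays, was 0.0159 for the stromal, neuronal and ductal means and 0.00794 for the endothelial, Schwann, delta and beta cell means (adjusted p of 0.0227 and 0.0198 over 10 cell types). The means over macrophage, alpha cell and acinar markers differed by 0.29, 0.14 and -0.23 (exact two-sided permutation p = 0.0476, 0.135 and 0.81, adjusted p = 0.0595, 0.15 and 0.81). No tested marker was at 0 on any array. Guidance cues are also made by these cells, and the part of these shifts in the results that follow was not tested.

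Semaphorins are the largest of the families measured, with 20 members, of which 16 were tested. Of these 3 rose, none fell and 13 were not called, with a median difference of 0.33. Over all genes tested 3.67% rose and 2.63% fell. *Sema4f* encodes a membrane-bound class 4 semaphorin. Its signal was 8.22, 7.59, 8.31, 8.17 and 8.26 in WT islets and 9.31, 8.83, 9.36 and 9.23 in KO islets. Every KO value exceeded the highest WT value, and the lowest value of each group was replicate 2. The log2 difference was 1.07 ± 0.18 (SE), or 2.10-fold (limma adjusted p = 0.00976). The other *Sema4f* probe set was also without overlap, with a difference of 0.73 (limma unadjusted p = 0.049).

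*Sema3c* encodes a secreted class 3 semaphorin that acts through neuropilins and plexins. It read 8.47, 8.16, 8.32, 8.70 and 8.33 in WT islets and 9.47, 9.05, 9.02 and 9.41 in KO islets. The groups did not overlap, and the difference was 0.84 ± 0.14, or 1.79-fold (limma adjusted p = 0.0122). A dimmer second probe set differed by 0.27 (limma unadjusted p = 0.346). The call was lost with arrays centred on their median (limma adjusted p = 0.0546) and with probe sets averaged (limma adjusted p = 0.132). *Sema3e*, a secreted semaphorin that binds plexin D1 directly, read 7.62, 7.43, 7.82, 7.84 and 8.13 in WT islets and 8.38, 8.52, 8.58 and 8.55 in KO islets. The KO arrays lay close together above WT, with a difference of 0.74 ± 0.14, or 1.67-fold (limma adjusted p = 0.0181). All 4 of its probe sets were higher in KO islets, by 0.61, 0.66, 0.74 and 2.44, the last at a dim WT mean of 3.75. The call of *Sema3e* was lost without KO replicate 2, 3 or 4 (limma adjusted p = 0.0514, 0.0592 and 0.0527), with quantile normalization (0.0535) and with median-centred arrays (0.0745).

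*Sema5a* (0.72 ± 0.23), which carries thrombospondin repeats, the membrane-anchored *Sema7a* (0.63 ± 0.24) and the secreted *Sema3g* (0.44 ± 0.19) had unadjusted limma p of 0.0133, 0.026 and 0.0455 and did not pass the adjusted test. Their arrays overlapped between the groups, and a dim second probe set of *Sema5a* was 1.28 lower in KO islets (limma unadjusted p = 0.017). *Sema3b* was below the filter. It read 5.13, 3.20, 3.63, 5.82 and 2.73 in WT islets and 6.48, 6.25, 6.50 and 6.08 in KO islets. The WT arrays were widely spread and all lay below KO. In the fit without a filter its difference was 2.22 ± 0.62 (limma adjusted p = 0.113). The other *Sema3b* probe sets, also dim, overlapped and differed by -1.17 and 0.28 (limma unadjusted p = 0.278 and 0.603). *Sema6c* had the most negative difference of the tested semaphorins, -0.73 ± 0.67 (limma adjusted p = 0.587).

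None of the 9 plexins and none of the 2 neuropilins, the receptors and co-receptors of semaphorins, passed the test. At an unadjusted limma p under 0.05 there was 1 plexin, lower in KO islets, and no neuropilin, where 21.8% of all genes passed. The methods' t-test with Benjamini-Hochberg adjustment called no plexin, neuropilin, netrin receptor, Slit or ephrin. The plexin with the lowest p was *Plxnb2*, a receptor of class 4 semaphorins, at 11.89, 11.92, 11.91, 11.82 and 11.92 in WT islets and 11.65, 11.36, 11.60 and 11.77 in KO islets. The groups did not overlap, with a difference of -0.29 ± 0.10 (limma adjusted p = 0.106). *Plxnd1*, the receptor of *Sema3e*, differed by 0.07 ± 0.24. *Nrp1* differed by 0.08 ± 0.13 at a WT level of 11.83, although the dimmest of its 4 probe sets was 0.71 higher in KO islets (limma unadjusted p = 0.018). *Nrp2* differed by 0.21 ± 0.25.

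Of the 4 netrins, *Ntn4* had both group means above the filter, *Ntn1* passed it through its KO mean alone, and *Ntn3* (4.34 in WT and 5.17 in KO islets) and *Ntn5* (4.71 and 4.54) were below it. *Ntn4*, a laminin-like netrin of basement membranes, had the lowest p of all members. It read 8.93, 9.17, 9.33, 9.05 and 9.28 in WT islets and 9.88, 9.93, 9.98 and 9.91 in KO islets. The KO arrays spanned a narrow range above every WT array, and the difference was 0.77 ± 0.10, or 1.71-fold (limma adjusted p = 0.00381). A dim second probe set differed by 0.59 (limma unadjusted p = 0.527), and the call was lost with both averaged (0.68, limma adjusted p = 0.513). *Ntn1*, which encodes netrin-1, the classical attractant of the family, read 6.36, 5.00, 5.76, 2.79 and 4.63 in WT islets and 7.51, 7.23, 7.45 and 7.71 in KO islets. The WT arrays were dim and far apart, whereas the KO arrays lay together above them. Its difference of 2.56 ± 0.62 (limma adjusted p = 0.0442) is therefore uncertain in size, being 2.05 with values under 5 set to 5, and a second, dimmer probe set differed by -0.54 (limma unadjusted p = 0.626). The call of *Ntn1* was lost without WT replicate 2, 3 or 5 and without any 1 of the KO replicates (limma adjusted p from 0.0503 to 0.109), and held without WT replicate 1 or 4.

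None of the 5 tested netrin receptors passed the test, and none had an unadjusted limma p under 0.05. *Unc5b*, a repulsive netrin receptor of vessels, had the lowest p (0.58 ± 0.27, limma unadjusted p = 0.0588), and its other probe set differed by -1.08. Neogenin (*Neo1*) was at 11.23 in WT and 11.10 in KO islets, a difference of -0.13 ± 0.09. *Unc5a* differed by 0.03 ± 0.13, *Unc5c* by 0.31 ± 0.20 and *Dcc* by -0.16 ± 0.43. Of the genes taken in by their letters, *Unc5cl* was 0.44 ± 0.19 higher (limma unadjusted p = 0.0472, adjusted p = 0.222) and *Unc50* differed by 0.01 ± 0.14.

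Of the Slits and Robos only *Robo1* passed the test. *Slit2*, a secreted repulsive ligand, read 6.85, 5.55, 8.01, 7.36 and 6.98 in WT islets and 8.49, 8.24, 8.34 and 8.93 in KO islets. No array overlapped, but WT values were widely spread, and the difference of 1.55 ± 0.43 did not pass (limma adjusted p = 0.0673). A second *Slit2* probe set was 2.04 higher without overlap (limma unadjusted p = 0.013), and another, dim one differed by -0.58. *Slit2* passed without WT replicate 3 (1.81, limma adjusted p = 0.0343) and with a spread that was allowed to depend on the signal (limma adjusted p = 0.021). *Slit1* differed by 0.34 ± 0.53. *Slit3* was below the filter, at 4.85 ± 0.60 in WT and 5.81 ± 0.51 in KO islets.

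*Robo1*, a receptor of Slits, read 9.95, 9.88, 9.84, 9.64 and 9.80 in WT islets and 9.02, 8.94, 9.39 and 9.23 in KO islets. Every KO value was under the lowest WT value, with a difference of -0.67 ± 0.11 (limma adjusted p = 0.0114), or 1.60-fold lower. The fall was measured by the bright probe set only. Its other probe sets were dim (5.72 and 4.40 in WT) and differed by 0.47 and 0.88 (limma unadjusted p = 0.443 and 0.255), so the mean of all 3 was 0.23 higher in KO islets (limma adjusted p = 0.781). *Robo2* read 10.85, 9.60, 10.19, 10.07 and 9.97 in WT islets and 9.52, 9.63, 9.74 and 9.29 in KO islets. Its arrays overlapped through WT replicate 2, and the difference of -0.59 ± 0.23 did not pass (limma adjusted p = 0.169). *Robo4*, the member of the family that is typical of endothelium, differed by 0.07 ± 0.13.

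Promoter sequences are shown for *Ntn4*, *Sema4f* and *Robo1*, the members with the lowest p that rose among netrins and semaphorins and that fell. They are the 250 bases before the start of the gene from RefSeq (GRCm38.p6), 5′ to 3′ on the strand of the gene, at chr10:93640799-93641048 (plus strand), chr6:82939770-82940019 (minus strand) and chr16:72662899-72663148 (plus strand). Capitals mark matches to the motifs searched on both strands.
Ntn4: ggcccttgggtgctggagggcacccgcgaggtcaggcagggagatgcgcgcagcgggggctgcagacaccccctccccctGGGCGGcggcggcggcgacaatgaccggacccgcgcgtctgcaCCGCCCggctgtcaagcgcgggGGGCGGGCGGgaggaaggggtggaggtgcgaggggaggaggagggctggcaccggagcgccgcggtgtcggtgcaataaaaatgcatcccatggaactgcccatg
Sema4f: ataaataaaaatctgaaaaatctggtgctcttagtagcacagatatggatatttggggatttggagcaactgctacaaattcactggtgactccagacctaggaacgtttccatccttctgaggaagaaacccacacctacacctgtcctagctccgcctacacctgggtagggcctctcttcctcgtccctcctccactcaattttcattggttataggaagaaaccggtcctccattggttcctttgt
Robo1: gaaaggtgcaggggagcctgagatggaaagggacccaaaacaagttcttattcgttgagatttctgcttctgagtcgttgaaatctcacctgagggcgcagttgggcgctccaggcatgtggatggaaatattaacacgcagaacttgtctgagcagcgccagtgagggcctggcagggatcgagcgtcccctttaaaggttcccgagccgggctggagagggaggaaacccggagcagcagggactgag
Motifs searched were the GC box (GGGCGG), the TATA box (TATAAA), the E-box (CACGTG), the cyclic AMP response element (TGACGTCA) and a forkhead site (TGTTTAC). The *Ntn4* window held 4 GC boxes, of which 2 overlap, and 26 CG dinucleotides. The *Sema4f* and *Robo1* windows held none of the 5 motifs, with 4 and 11 CG dinucleotides. RefSeq windows were found for 61 of the 72 members, 77 windows in all, some genes having several starts. A GC box was present in 72.7% of them, against 42.6% of the 21263 windows of protein-coding genes, which include those of the members. The TATA box was present in 2.6% and 11.6%, the E-box in 5.19% and 6.63%, the cyclic AMP response element in 1.3% and 1.92%, and the forkhead site in 0 of the 77 and 2.62%. The median number of CG dinucleotides was 15 in member windows and 10 in those of protein-coding genes. A match describes the letters only and is not evidence of binding.

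**Figure D2:**
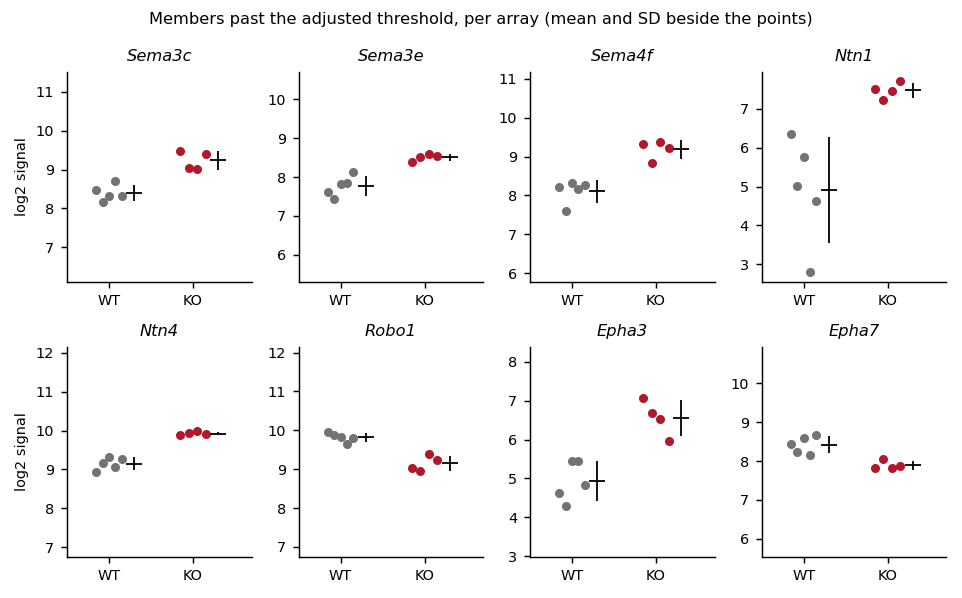
Log2 signal of the 8 called members on each array, with the 5 WT values in grey, the 4 KO values in red, the mean and SD beside the points and a vertical axis of the same log2 range in every panel. No called member has overlapping groups, and the WT arrays of *Ntn1* spread from 2.79 to 6.36.

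Ephrins were tested in full, and none of the 8 passed, although 3 had an unadjusted limma p under 0.05, where 21.8% of all genes did. *Efna1*, a GPI-anchored ephrin, was at 7.43, 7.36, 7.92, 7.88 and 7.83 in WT islets and 8.25, 8.71, 7.97 and 8.16 in KO islets. The groups did not overlap, with a difference of 0.59 ± 0.18 (limma adjusted p = 0.095). The transmembrane ephrin *Efnb3* was at 8.45, 8.64, 8.68, 7.97 and 8.73 in WT islets and 9.10, 9.01, 9.24 and 8.77 in KO islets, also without overlap (0.54 ± 0.17, limma adjusted p = 0.104). *Efnb2*, the ephrin of arterial endothelium, had overlapping groups and a difference of 0.47 ± 0.21 (limma adjusted p = 0.221). Its second probe set was 0.81 higher in KO islets without overlap (limma unadjusted p = 0.009). *Efna2*, *Efna4* and *Efna5* had negative differences, of -0.32 ± 0.21, -0.52 ± 0.44 and -0.12 ± 0.17.

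Of 13 Eph receptors 8 were tested, and 1 rose and 1 fell, where 3.67% of all genes rose and 2.63% fell. Single calls do not describe the family. *Epha3*, a receptor kinase of ephrin-A ligands, read 4.63, 4.29, 5.44, 5.46 and 4.83 in WT islets and 7.07, 6.68, 6.53 and 5.96 in KO islets. The groups did not overlap, and the difference was 1.63 ± 0.30 (limma adjusted p = 0.0158). Its WT mean of 4.93 was below the filter, and with values under 5 set to 5 the difference was 1.38 (limma adjusted p = 0.00721). The other 3 *Epha3* probe sets were dimmer and also positive (0.92, 0.36 and 0.70), each with an unadjusted limma p above 0.25. Without KO replicate 1 the gene fell below the filter and was not tested. *Epha7*, of the same receptor class, read 8.44, 8.24, 8.60, 8.15 and 8.66 in WT islets and 7.81, 8.06, 7.82 and 7.87 in KO islets. The groups did not overlap, but KO replicate 2 lay just below WT replicate 4. The difference was -0.53 ± 0.13, or 1.44-fold lower (limma adjusted p = 0.0442). This call was lost without any 1 array other than WT replicate 4 (limma adjusted p from 0.0552 to 0.121).

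*Ephb1* read 6.09, 6.36, 6.51, 6.18 and 6.62 in WT islets and 5.62, 6.00, 5.84 and 6.04 in KO islets. It did not overlap either, with a difference of -0.48 ± 0.14 (limma adjusted p = 0.0807). *Ephb4*, the receptor of ephrin-B2 on venous endothelium, was below the filter. It read 5.61, 3.81, 5.67, 2.86 and 4.22 in WT islets and 6.89, 6.80, 7.04 and 6.64 in KO islets. WT values were scattered at the dim end, and KO values lay together above them. In the fit without a filter its difference was 2.41 ± 0.57 (limma adjusted p = 0.0716). It was tested and called with values under 5 set to 5 (1.59, limma adjusted p = 0.00178), with quantile normalization (limma adjusted p = 0.0432) and without WT replicate 4 (limma adjusted p = 0.0397). *Epha2* (0.28 ± 0.36), *Epha4* (0.28 ± 0.25), *Epha5* (0.42 ± 0.44), *Epha8* (1.00 ± 0.81) and *Ephb3* (0.10 ± 0.57) did not pass.

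**Figure D3:**
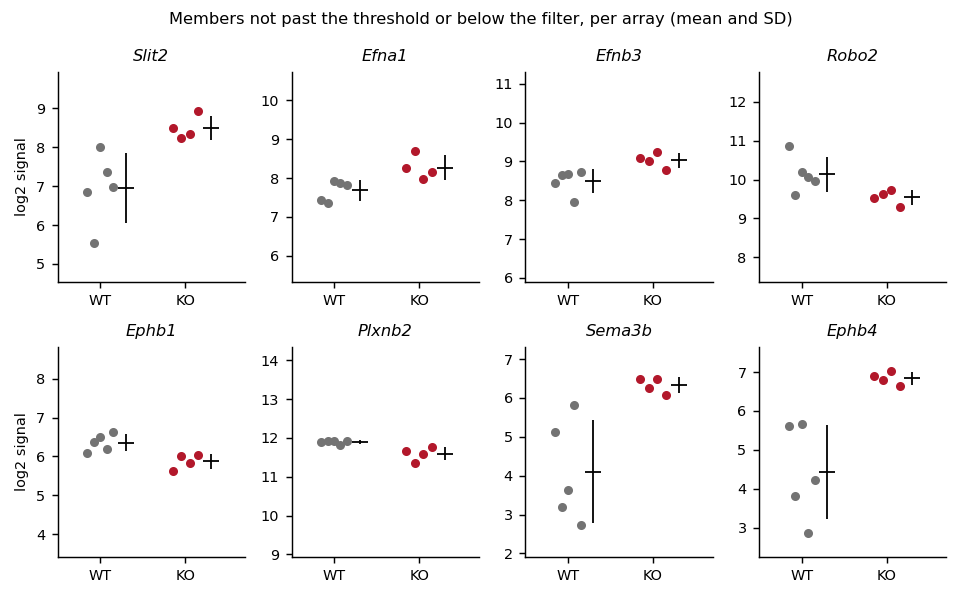
Log2 signal per array of 6 tested members that were not called and of *Sema3b* and *Ephb4*, which were below the filter. The 5 WT values are grey and the 4 KO values red, with mean and SD beside them. Only *Robo2* has overlapping groups, and the WT arrays of *Slit2*, *Sema3b* and *Ephb4* are widely spread.

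The 15 members below the filter had mean log2 signals from 3.39 to 5.50 and differences from -0.95 to 2.41. Beside *Sema3b*, *Slit3* and *Ephb4* these were *Epha1*, *Epha6*, *Epha10*, *Ephb6*, *Ntn3*, *Ntn5*, *Plxna4os1*, *Robo3*, *Sema3a*, *Sema3d*, *Sema6b* and *Unc5d*. The probe set that stood for *Epha1* differed by 0.23. A second, also dim, differed by -2.18 without overlap, from 5.20 in WT to 3.02 in KO islets (limma unadjusted p = 0.00157), and another by 0.22. Dim genes varied more between arrays. The median within-group SD was 0.56 over the 18 tested members with means under 7 and 0.27 over the 39 others.

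The size of the changes rested on the probe set that stood for the gene. The 8 called members had 15 further probe sets, of which 11 had the sign of the first and 4 the opposite sign. The 4 further probe sets with an unadjusted limma p under 0.05 were 3 of *Sema3e* and 1 of *Sema4f*, and each had the same sign as the first.

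**Figure D4:**
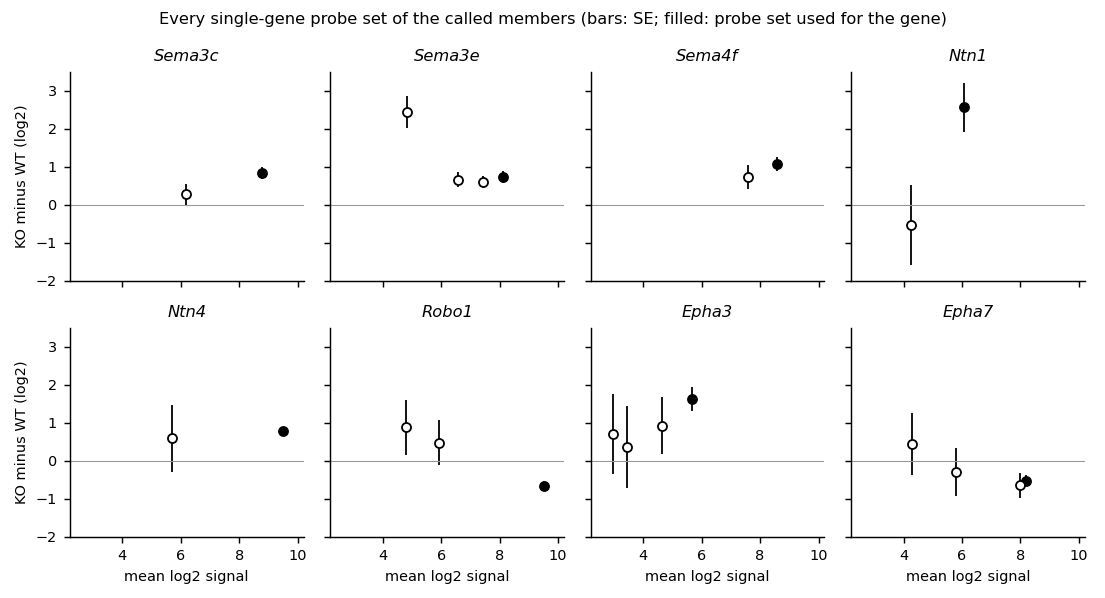
Log2 difference, KO minus WT, with its SE for each probe set of the 8 called members against the mean log2 signal of the probe set over the 9 arrays. Filled points are the probe sets that stood for the gene, and open points are the dimmer ones. All probe sets of *Sema3e* and *Sema4f* lie above 0, while those of *Robo1* lie on both sides.

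Lists of genes that act downstream of these receptors and of further cues were read from the same fit. They too were chosen with earlier results of these data known. Of 52 tested effectors 5 rose and 1 fell (11.5%, where 6.3% of all genes passed), with a median difference of 0.06. *Vav3*, which is 1 of the 5, passed the filter through its KO mean alone, so the share is a description only. *Crmp1*, a cytoplasmic mediator of semaphorin signals, read 8.90, 8.86, 8.93, 9.44 and 8.91 in WT islets and 9.83, 10.12, 10.21 and 10.15 in KO islets. It was higher on every KO array, by 1.07 ± 0.14 or 2.10-fold (limma adjusted p = 0.00441). The p21-activated kinase *Pak3* rose by 0.61 ± 0.09 and *Rnd2* and *Rnd3* by 0.64 ± 0.11 and 0.93 ± 0.19. *Vav3*, an exchange factor that Eph receptors can recruit, rose by 1.55 ± 0.34 from a dim WT level of 5.28, and was not called with values under 5 set to 5 (1.21, limma adjusted p = 0.0968). *Trio*, an exchange factor used by Dcc, fell by 0.45 on the log2 scale, from 11.67 ± 0.07 to 11.22 ± 0.15 (limma adjusted p = 0.0292). The calls of *Rnd3*, *Trio* and *Vav3* were lost on leaving out 6, 8 and 7 of the 9 arrays, 1 at a time, and that of *Pak3* with median-centred arrays (limma adjusted p = 0.0562). With probe sets averaged *Pak3*, *Rnd3*, *Vav3* and *Trio* were not called (limma adjusted p = 0.139, 0.143, 0.136 and 0.778), and the difference of *Trio* was -0.13. *Crmp1* and *Rnd2* were still called there (limma adjusted p = 0.0102 and 0.0334).

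Of 22 further cues and adhesion molecules 2 rose and 2 fell, or 18.2%, where 6.3% of all genes passed, 3.67% higher and 2.63% lower. *Slitrk6*, a membrane protein that shares its leucine-rich repeats with Slits, read 11.49, 11.03, 11.13, 11.13 and 11.37 in WT islets and 10.36, 10.52, 10.50 and 10.10 in KO islets. All KO arrays lay lower, by 0.85 ± 0.13 or 1.81-fold (limma adjusted p = 0.0077). *Adgrl3*, a latrophilin, differed by -0.89 ± 0.20 (limma adjusted p = 0.0334). The chemokine gene *Cxcl12* (1.13 ± 0.21) and *Chl1*, an adhesion molecule of the L1 family (1.45 ± 0.31), rose. With probe sets averaged neither *Cxcl12* (0.45, limma adjusted p = 0.533) nor *Chl1* (0.67, limma adjusted p = 0.226) was called. The call of *Adgrl3* was lost without WT replicate 3, 4 or 5 or KO replicate 1, 2 or 3 (limma adjusted p from 0.0538 to 0.0821), and that of *Chl1* without WT replicate 4 or KO replicate 1, 3 or 4.

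**Figure D5:**
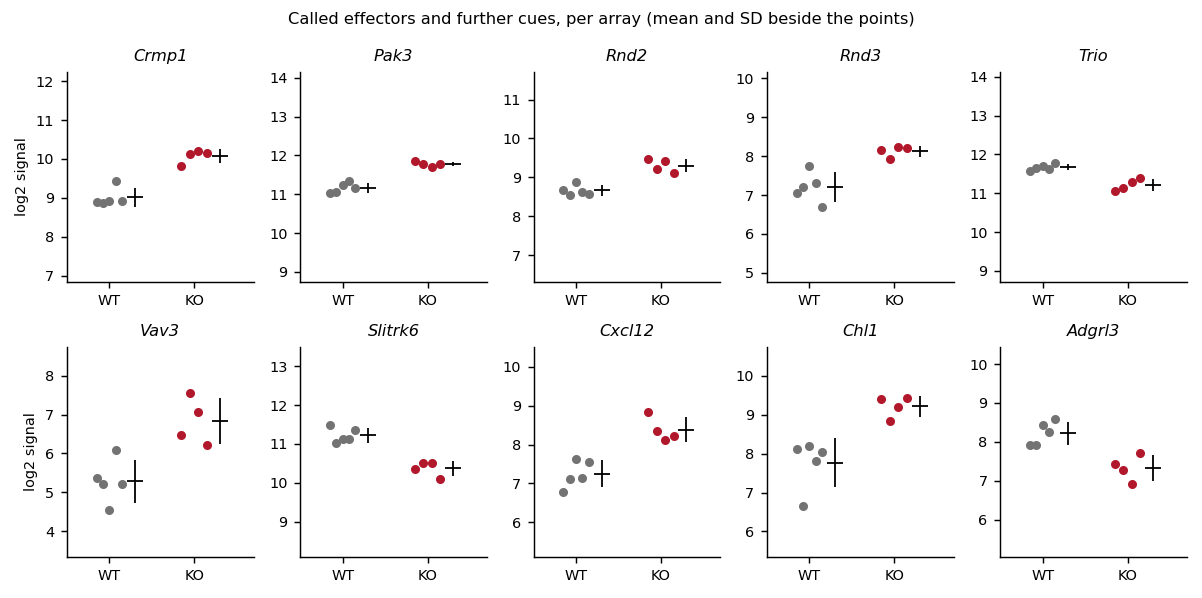
Log2 signal per array of the 6 effectors and 4 further cues or adhesion molecules that passed the test, with 5 WT values in grey, 4 KO values in red, and mean and SD beside them. *Trio*, *Slitrk6* and *Adgrl3* lie lower in KO islets and the other 7 higher, without overlap of the groups.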

How the data were processed

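Islet RNA was measured on 9 Affymetrix mouse genome arrays. Groups and replicate numbers came from the sample titles. The authors deposited log2 signals, 1 per probe set and array. Their methods name Genespring, while the way probes were summarised is not stated there. The trimmed mean of the linear signal was 497.0 to 497.5 on every array. No scan batch was tested.

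Of 45037 probe sets 34945 had 1 gene in the platform annotation, 932 several and 9160 none here. A gene was represented by its probe set with the highest mean, and genes in the lowest 0.25 of these means were not tested. A two-sided limma fit without covariates (limma 3.58.1, R 4.3.3) compared KO with WT, and p-values were adjusted by Benjamini-Hochberg over 13644 genes with a threshold of 0.05. Alternatives were no filter or a larger one, median centring, quantile normalization, averaged probe sets, a floor of 5, a trended spread, the methods' t-test, the replicate block and leaving out each array. The p-values measure the spread between pools. The members and lists were chosen with earlier results of these data known. Named were members that were called, did not overlap, had an unadjusted p under 0.05 or had the lowest p of their family, and up to 6 called genes of each downstream list. Further members were added for completeness of the families after their values were seen. On simulated arrays with 13644 genes limma called 148 genes, 6 of them unchanged. It found 28 of 58, 47 of 71 and 67 of 71 genes changed by 0.58, 1 and 2 on the log2 scale. The simulated noise was normal and independent between genes, which real arrays need not be, so these counts give no error rate for the data.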

Additional observations from a re-analysis of the deposited data

Results flagged for a closer look

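In 2 of the 46 groups examined (23 named members in WT and KO arrays) the gap between the most distant array and its nearest neighbour was a larger share of the group's range than Dixon's limit allows, and chance marks about 1 in 20 groups. For *Sema4f* the WT replicate 2 array was low at 7.59, with a gap of 0.805 of the range. Without it *Sema4f* was still called. For *Plxnb2* the WT replicate 4 array was low at 11.82, with a gap of 0.731 of the range.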

How the results depend on the processing

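The 8 called of 57 tested members became 5 of 28 with the lowest 0.5 of genes left out and 4 of 57 with median-centred arrays. They became 2 of 54 with averaged probe sets and 1 of 57 (*Sema4f*) with the replicate block. Of all genes 11.9%, 3.5%, 2.32% and 0.447% were called in these settings, against 6.3% in the main fit. In the replicate block fit WT replicate 5 had no KO array of its number and added nothing to the differences. That of *Ntn4* was 0.80 both there and without WT replicate 5. The block fit thus also had fewer arrays to estimate the spread. When 1 array was left out the called members ranged from 5 to 9, and 2.75% to 5.88% of all genes were called. *Sema4f* was called in all 18 settings (limma adjusted p at most 0.0463), *Ntn4* and *Robo1* in 16, *Sema3c* in 15 of 18, *Epha3* in 14 of 15, *Sema3e* in 11 of 17, and *Epha7* and *Ntn1* in 4 of 18 and 4 of 17. Where fewer than 18 settings are given, the gene was below the filter in the rest. For *Epha3* these were the lowest 0.5 left out, probe sets averaged and KO replicate 1 left out. The median difference of the members was 0.069 with the lowest 0.5 left out and ranged from 0.17 to 0.27 without 1 array. The 13 of 57 members without overlap became 7 of 28 with the lowest 0.5 left out and 7 of 54 with probe sets averaged. They ranged from 12 to 16 without 1 array. The share of all genes without overlap was not counted in these settings. The 10 called effectors and further cues became 6 without a filter on dim genes, where 2.48% of all genes were called. They became 5 with median centring, 4 with probe sets averaged and 0 with the replicate block (21 at an unadjusted limma p under 0.05). Without 1 array they ranged from 5 to 10. Averaging probe sets turned the sign of *Robo1* (0.23), *Nrp2* (-0.12) and *Unc5b* (-0.25). The cause was not tested.

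Median centring moved the median of all genes from 0.04 to -0.05, and 34.9% of 478 called genes were then higher in place of 58.3% of 860, against 3 higher and 1 lower of the members. With quantile normalization the share was 49.9%, against 5 higher and 2 lower members. The methods' t-test called 16 members at an unadjusted p under 0.05 and 6 after Benjamini-Hochberg adjustment, and limma without a filter called 6. Same-numbered WT and KO arrays deviated with correlations of -0.04, 0.09, 0.12 and -0.03. So few pairs cannot show whether arrays of the same number were handled together. With the replicate block 61 genes were called in place of 860, and 2 of the 4 KO arrays correlated best with the WT array of their own number. The number of arrays limits the precision, most of all for the dim members.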
